A study of Homo sapiens with 6 samples.

Results

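The 47 genes described here encode the enzymes and transporters that trim, branch and cap the sugar chains of secreted and membrane proteins. They cover sialic acid synthesis (5 genes), sialyltransferases (10), sialidases (2), galactosyltransferases (5), N-glycan branching enzymes (6), fucosylation (10), Golgi mannosidases (4) and the first steps of mucin-type O-glycans (5). Members were taken by name from the 57905 genes of the deposited table, and each matched 1 row. RNA came from 6 libraries of Huh7, a human hepatoma line grown in DMEM with serum. In 3 libraries the cells had received a scrambled control siRNA (siControl) and in 3 an siRNA against ASGR1 (siASGR1), in both cases for 72 h. Libraries carry the numbers 1 to 3 within a group, and no label says whether they came from separate cultures. A p-value here thus weighs a difference only against library-to-library spread, part or all of which may be technical. In bulk RNA, fewer cells of a kind and less RNA per cell cannot be told apart. Huh7 is a tumour line, and the labels do not say whether the siRNA against ASGR1 was a single sequence or a pool.

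N-glycans reach the Golgi as high-mannose chains. Golgi mannosidases trim them, N-acetylglucosaminyltransferases start and multiply the antennae, and galactosyl- and sialyltransferases cap each antenna with galactose and sialic acid, while fucose is added to the core or to the antennae. Sialic acid covers galactose, and sialidases expose it again. Exposed galactose is what the asialoglycoprotein receptor of hepatocytes, of which ASGR1 is the major subunit, binds on plasma glycoproteins.

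Values are FPKM, fragments scaled for exon length and library depth, which can be compared between genes. Means are given ± SD over n = 3 libraries per group. Differences called log2 are siASGR1 minus siControl of log2(FPKM + 1), with the standard error (SE) and a p adjusted over all 13568 genes tested with limma. This scale understates changes of low genes. A gene was tested where at least 3 libraries held at least 1 FPKM, and was called at an adjusted p under 0.05. Depth rebuilt from the values was 16326000 to 19333000 fragments per library. The siControl libraries detected 26671 to 27300 genes and the siASGR1 libraries 24609 to 25151. In the table of the whole series, ASGR1 was 17.54, 17.56 and 16.90 in siControl and 4.60, 4.82 and 4.71 in siASGR1. The files of the single siASGR1 libraries list it at 14.65, 15.81 and 14.04 instead. No member differed between these sources. Of 10 hepatocyte and hepatoma markers 9 were called higher in siASGR1 and 0 lower, beside 20.9% and 40.4% of all tested genes. Their summed FPKM was 4395 to 4528 in siControl and 8039 to 8335 in siASGR1. Of 8 fibroblast markers, 5 were lower without overlap of the groups, 1, PDGFRA, was higher and 2 overlapped. Of all tested genes 67.3% did not overlap, and of genes under the filter with a mean of at least 0.05 FPKM 20.6% were lower without overlap. COL1A1 was 2.46 and 0.027 in mean FPKM and COL1A2 1.51 and 0.02, both having passed the filter through siControl only. PDGFRA was 4.49 and 10.95. The summed levels, 10.1 to 11.1 in siControl and 11.03 to 12.3 in siASGR1, hide these opposite changes. The leukocyte markers PTPRC and CD3E were at or below 0.04 in every library, although LYZ was not low (67.6 to 75.1 and 114.2 to 117.6). Of 3 endothelial markers, KDR was listed at 0 throughout, while CDH5 (0.053 and 0.173 in mean FPKM) was higher and VWF (0.037 and 0.010) lower without overlap. The part of these markers in the results on glycosylation genes was not tested.

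The upstream sequences of 3 members are shown because the results turn on these genes. In fold, NEU1 fell and B4GALT1 rose more than any other tested member outside the fucosyltransferases. MAN1A1, which rose, was the most abundant. Of the 47 members, 39 matched an entry of the RefSeq promoter table (GRCh38.p14). Printed are the bases before the start that lie outside the annotated gene, 5′ to 3′ on the gene's strand, all 3 on the minus strand. Capitals mark the E-box (CACGTG), the GC box (GGGCGG) and the CCAAT box (CCAAT) on either strand.
NEU1, chr6:31862907-31863071: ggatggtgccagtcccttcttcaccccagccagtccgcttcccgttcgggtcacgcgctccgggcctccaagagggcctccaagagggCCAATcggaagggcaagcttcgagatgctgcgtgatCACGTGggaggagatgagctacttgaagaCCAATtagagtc
B4GALT1, chr9:33167357-33167586: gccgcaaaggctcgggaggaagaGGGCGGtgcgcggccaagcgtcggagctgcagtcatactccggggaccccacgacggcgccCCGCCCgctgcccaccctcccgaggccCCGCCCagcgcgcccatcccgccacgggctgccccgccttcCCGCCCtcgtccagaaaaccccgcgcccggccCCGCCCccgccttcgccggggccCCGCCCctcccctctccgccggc
MAN1A1, chr6:119349762-119350011: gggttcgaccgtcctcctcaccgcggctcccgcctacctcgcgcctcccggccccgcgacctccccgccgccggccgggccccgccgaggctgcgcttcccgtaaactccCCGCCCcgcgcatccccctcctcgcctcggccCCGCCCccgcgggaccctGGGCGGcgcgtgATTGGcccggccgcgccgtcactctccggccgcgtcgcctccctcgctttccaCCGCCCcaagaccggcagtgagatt
Over the 250 bases before the start, the E-box was present in 3 of 39 member promoters (7.7%; NEU1, ST3GAL4 and B4GALT2), against 6.5% of 27305 promoters in the table. The GC box was present in 26 (66.7%, against 42.3%) and the CCAAT box in 14 (35.9%, against 33.0%). Of 2 further motifs searched on both strands, the TATA box (TATAAA) was in 1 member promoter (2.6%, against 11.1%) and the AP-1 site (TGANTCA) in 2 (5.1%, against 6.6%). B4GALT1 had 7 GC boxes in that window, MAN1A1 had 4 and NEU1 had 1. Of the 3 genes with an E-box, NEU1 and ST3GAL4 were called lower and B4GALT2 higher, and a link between motif and direction was not tested. A match describes the letters only and shows no bound factor.

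Of the 47 members, 39 could be tested, and 29 of these were called. That is 74.4%, beside 61.3% of all genes tested. Members called higher numbered 13 (33.3%, against 20.9% of all genes) and members called lower 16 (41.0%, against 40.4%). The median log2 difference of the tested members was -0.04, beside -0.13 for all tested genes. With median-of-ratios scaling, which moved the median of all genes from -0.13 to -0.01, 15 members were higher (38.5% of those tested) and 13 lower (33.3%), against 29.9% and 28.9% of all genes. FUT3 passed the filter through its siControl libraries only. Changes were mostly modest: 20 of the 29 called members differed by less than 1.5-fold in mean FPKM, while 2, NEU1 and FUT3, had a log2 difference beyond 1 in size. Of the 39 tested members, 30 (76.9%) had all 3 siASGR1 libraries above or all below the 3 siControl libraries, against 67.3% of all tested genes.

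**Figure D1:**
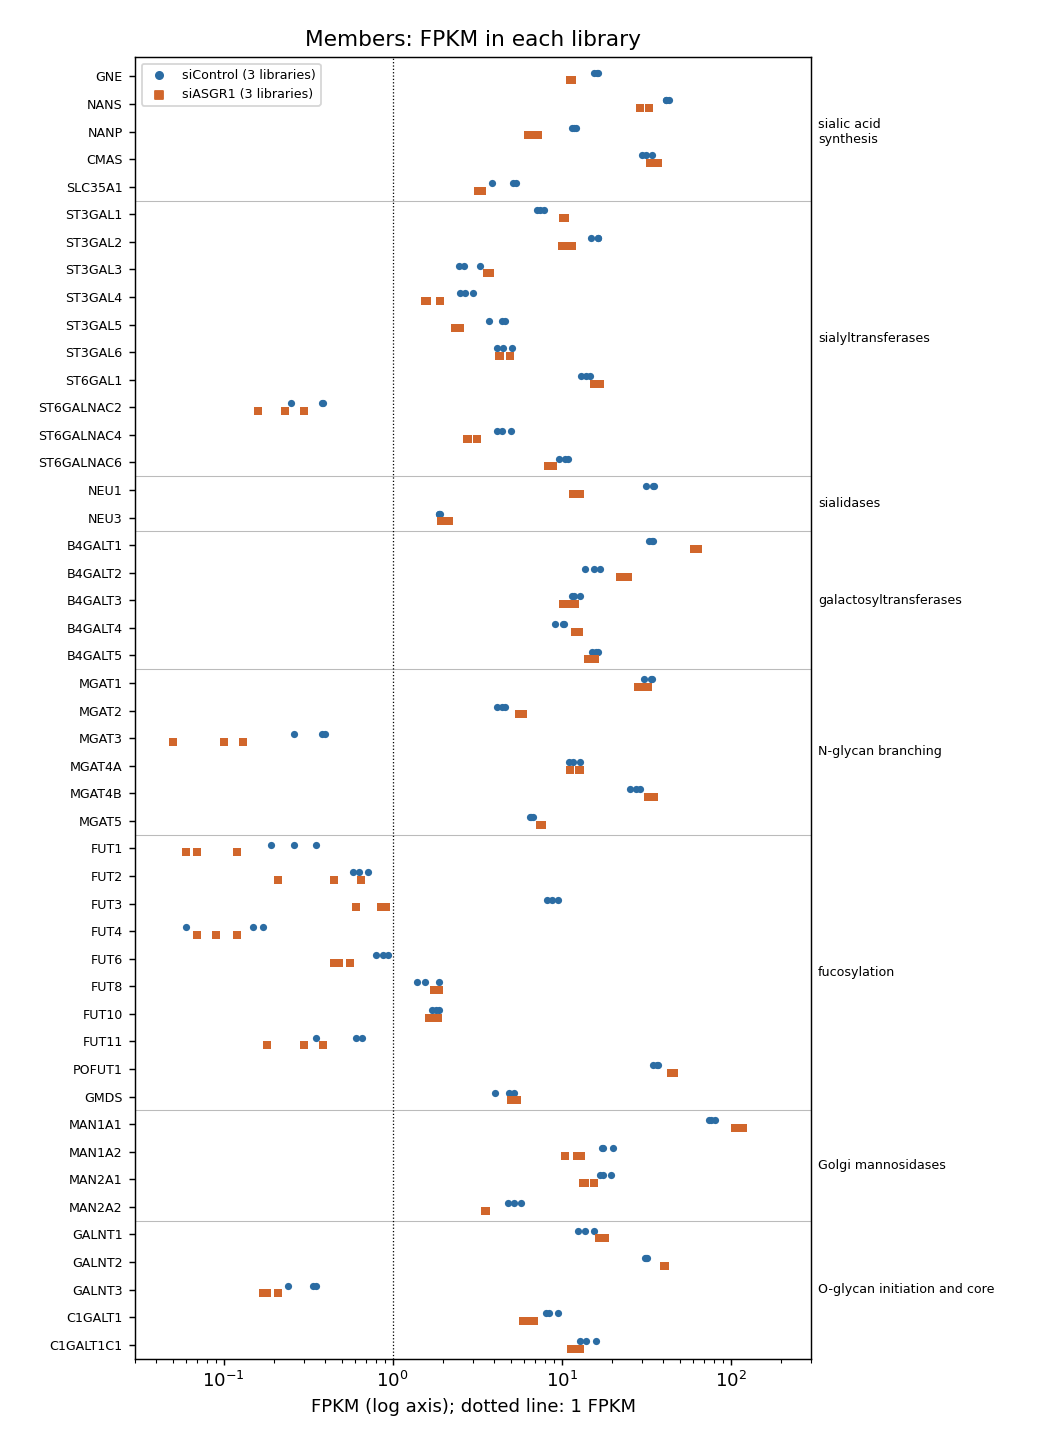
FPKM of each member in every library (log axis), grouped by role, with siControl as blue circles and siASGR1 as orange squares. The siASGR1 squares of NEU1 (11.76 to 12.93) and FUT3 (0.61 to 0.91) lie far left of siControl, those of B4GALT1 (61.05 to 64.58) to the right, and the 8 untested members lie left of the dotted line at 1 FPKM.

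Genes for making sialic acid were lower, except for the activating step. Of the 5 genes, 4 fell and 0 rose, where 40.4% of all tested genes were called lower and 20.9% higher. GNE, the bifunctional enzyme that starts sialic acid synthesis from UDP-GlcNAc, was 15.51, 16.29 and 16.33 in siControl and 11.21, 11.49 and 11.48 in siASGR1 (log2 -0.46, SE 0.04, adjusted p = 9.04e-05). NANS, the synthase that builds the phosphorylated acid, was 43.18, 41.75 and 41.56 against 29.19, 32.95 and 28.92 (1.39-fold lower). NANP, the phosphatase that follows, was 11.80, 12.13 and 11.54 against 7.21, 6.37 and 6.55 (1.76-fold lower, log2 -0.74, SE 0.06, adjusted p = 4.13e-05). In each of these 3 genes every siASGR1 library was below every siControl library. SLC35A1, which carries CMP-sialic acid into the Golgi, was 5.37, 3.88 and 5.13 against 3.27, 3.39 and 3.20 (log2 -0.43, SE 0.10, adjusted p = 0.00959). The call of SLC35A1 was lost with quantile normalization (adjusted p = 0.0794), and 43.5% of its 75-base stretches also occur in another annotated gene, AL049697.1 (0.223 and 0.217 in mean FPKM), so its reads cannot be fully told apart from that gene. CMAS, which couples sialic acid to CMP, was the member that did not fall, at 32.0 ± 2.14 and 35.6 ± 2.07 (log2 0.15, SE 0.06, adjusted p = 0.0703). Its groups overlapped, and it was called higher in 6 of 17 alternatives, with median-of-ratios scaling (adjusted p = 0.00361) and without siControl replicate 3 (0.0295) or siASGR1 replicate 2 (0.0362) among them.

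The sialyltransferases split by gene. Of 9 tested, 3 rose and 5 fell, beside 20.9% higher and 40.4% lower among all tested genes. Among the ST3GAL enzymes, which link sialic acid α2,3 to galactose, ST3GAL1, which acts on O-glycan cores, was 7.47, 7.84 and 7.11 in siControl and 10.35, 10.19 and 10.50 in siASGR1 (log2 0.42, SE 0.05, adjusted p = 0.00029). ST3GAL2, of related specificity, went the other way, from 16.51, 16.38 and 15.00 to 11.57, 10.11 and 10.90 (log2 -0.52, SE 0.06, adjusted p = 0.000332). ST3GAL5, the GM3 ganglioside synthase, was 4.27 ± 0.49 and 2.42 ± 0.09, which is 1.76-fold lower. ST3GAL4, which acts on N-glycan antennae, was 2.73 ± 0.23 and 1.68 ± 0.20 (1.62-fold lower). ST3GAL3 rose 1.33-fold, from 2.64, 3.29 and 2.48 to 3.78, 3.77 and 3.64 (adjusted p = 0.0159), a call lost without siControl replicate 1 (adjusted p = 0.0517). ST3GAL6 was 4.58 ± 0.46 and 4.52 ± 0.38, with groups that overlapped and a 95% interval of -0.21 to 0.18 for the log2 difference.

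ST6GAL1, the main enzyme for α2,6-linked sialic acid on hepatic plasma proteins, was 14.03, 14.77 and 13.03 in siControl and 16.75, 15.49 and 16.78 in siASGR1. The rise was 1.17-fold (log2 0.22, SE 0.06, adjusted p = 0.0148) and was not called without siASGR1 replicate 1 (adjusted p = 0.0509) or siASGR1 replicate 3 (adjusted p = 0.0535). The ST6GALNAC enzymes add sialic acid to O-glycan GalNAc or to gangliosides. ST6GALNAC4 fell from 4.54 ± 0.44 to 2.91 ± 0.24 (log2 -0.50, SE 0.08, adjusted p = 0.00132). ST6GALNAC6 fell less, from 10.3 ± 0.64 to 8.54 ± 0.35 (adjusted p = 0.00786), and was not called with median-of-ratios scaling (adjusted p = 0.163). For ST6GALNAC6, 44.8% of 75-base stretches are shared with another annotated gene, AL157935.2, which was itself 1.15 and 0.473 in mean FPKM. ST6GALNAC2 was too low to test, at 0.25 to 0.39 and 0.16 to 0.30, and its groups overlapped.

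Shares within a family do not change when a library is rescaled, so they were set beside the levels. ST3GAL2 held 42.2% ± 1.70 of the summed FPKM of the 6 ST3GAL genes in siControl and 32.3% ± 1.54 in siASGR1, while ST3GAL1 went from 19.8% ± 0.38 to 30.8% ± 0.50. The 2 genes were thus near level in siASGR1, at 10.35, 10.19 and 10.50 FPKM for ST3GAL1 and 11.57, 10.11 and 10.90 for ST3GAL2, and their ranges overlapped there. The family sum itself was 37.8 ± 1.23 and 33.6 ± 0.99. With 3 against 3 libraries an exact two-sided permutation test cannot go below p = 0.1. Of 35 shares in 8 families, 22 did not overlap between groups, and none was below 0.159 after Benjamini-Hochberg adjustment over the 35. For levels, 67.3% of all tested genes did not overlap. Shares within a family depend on each other, those of a pair being mirror images, so the 22 are not separate results.

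**Figure D2:**
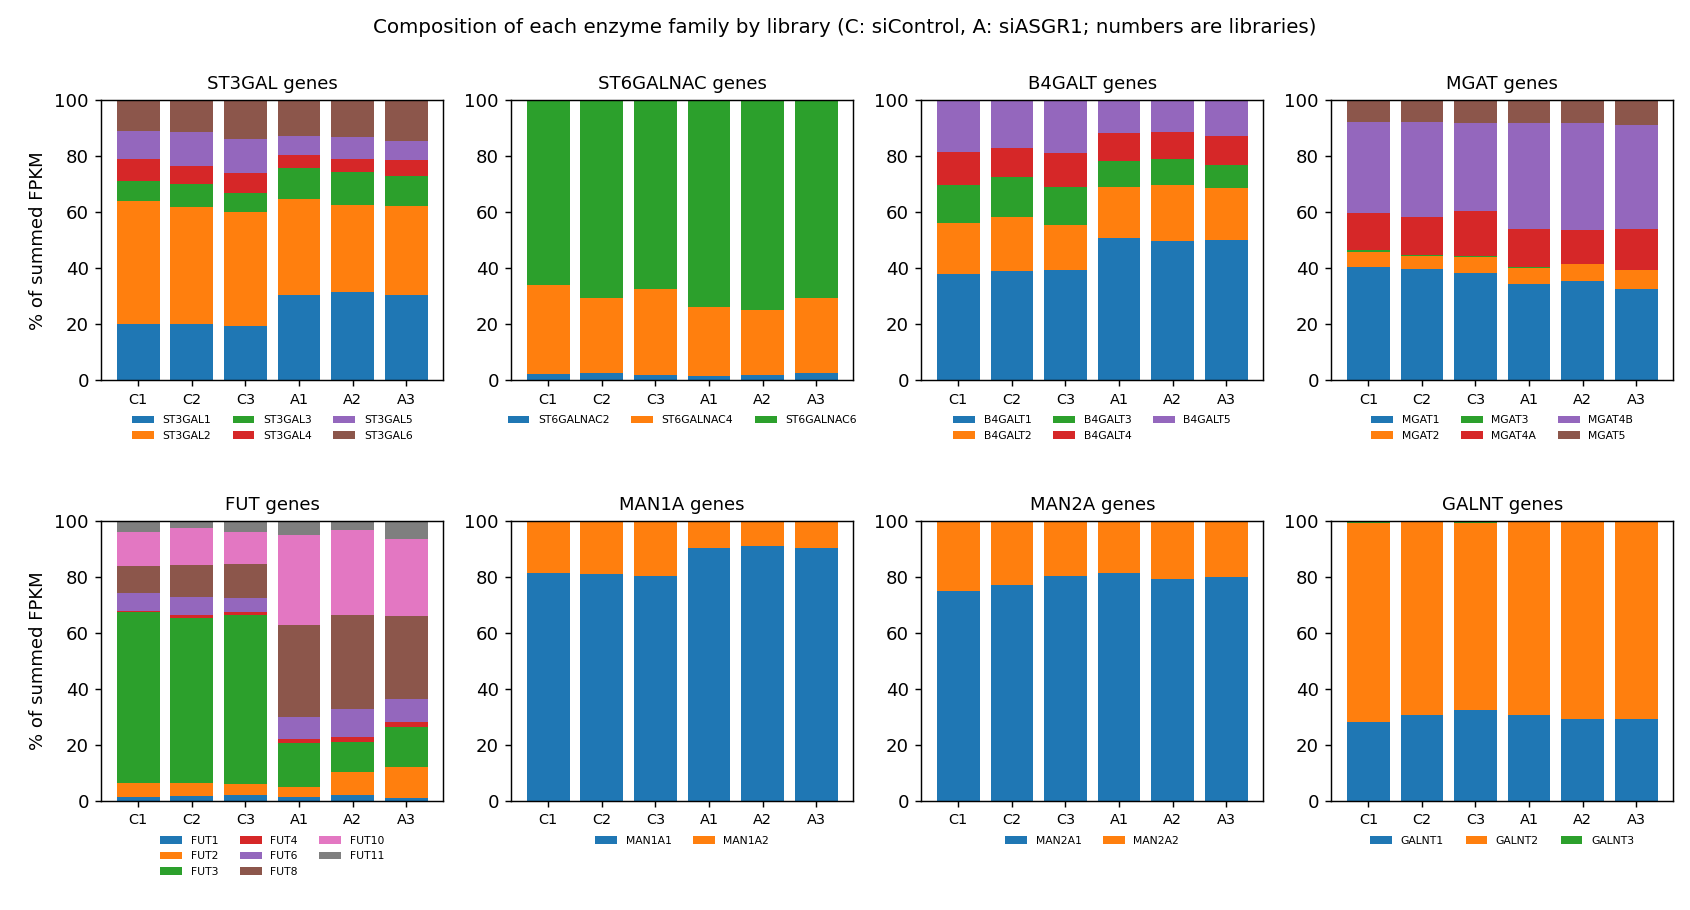
Share of each gene in the summed FPKM of its enzyme family, 1 stacked bar per library (C1 to C3 siControl, A1 to A3 siASGR1). ST3GAL1, B4GALT1 and MAN1A1 take larger shares in all 3 siASGR1 bars, and FUT3 shrinks from 60.1% to 13.7% of the FUT genes on average.

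NEU1 showed the largest fall among tested members outside the fucosyltransferases. NEU1 (ENSG00000204386; GRCh38 chromosome 6, 31857659 to 31862906, minus strand) encodes the lysosomal sialidase, which removes sialic acid from glycoproteins during breakdown. It was 34.53, 35.20 and 31.68 in siControl and 12.30, 12.93 and 11.76 in siASGR1. The highest siASGR1 library was well below the lowest siControl library, a 2.74-fold difference in means (log2 -1.38, SE 0.06, adjusted p = 4.01e-06), and the log2 difference was -1.24 with median-of-ratios scaling. NEU3, the sialidase of the plasma membrane that acts on gangliosides, was 1.88, 1.88 and 1.9 against 1.93, 2.00 and 2.16. Its groups did not overlap, yet the test did not call it (log2 0.07, SE 0.07, adjusted p = 0.429), except with quantile normalization (adjusted p = 0.0124).

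Galactosyltransferases moved upward or were not called. These enzymes add the β1,4-linked galactose that sialic acid later covers. Of 5 genes, 3 rose and 0 fell, beside 20.9% higher and 40.4% lower among all tested genes. B4GALT1 (ENSG00000086062; GRCh38 chromosome 9, 33104082 to 33167356, minus strand), the main enzyme for N-glycan antennae, was 32.73, 34.69 and 34.16 in siControl and 64.58, 62.14 and 61.05 in siASGR1 (log2 0.87, SE 0.04, adjusted p = 6.8e-06). This was the largest fold rise of mean FPKM among the tested members, 1.85-fold. B4GALT2 was 15.61, 16.90 and 13.67 against 22.99, 24.82 and 22.27 (1.52-fold, adjusted p = 0.000639). B4GALT4 was 9.84 ± 0.64 and 12.3 ± 0.29 (1.25-fold, adjusted p = 0.00278). B4GALT5, linked to lactosylceramide synthesis, was 15.8 ± 0.70 and 15.1 ± 0.68 (adjusted p = 0.291), and B4GALT3 12.1 ± 0.70 and 11.2 ± 0.93 (adjusted p = 0.224). For both the groups overlapped, and their small differences changed sign with median-of-ratios scaling, B4GALT5 also with upper-quartile scaling and quantile normalization. The summed FPKM of the 5 genes went from 87.0 ± 1.41 to 124.5 ± 2.81, and B4GALT1 took 38.9% ± 0.77 of it in siControl and 50.3% ± 0.52 in siASGR1. The antisense gene B4GALT1-AS1 covers 1.47% of the exons of B4GALT1 and was at 0.11 and 0.55 in mean FPKM. PPOX, on the opposite strand, covers 28.74% of the exons of B4GALT3 and was at 4.33 and 3.08. As the strand setting is not stated, reads of PPOX in the shared bases may count toward B4GALT3.

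Enzymes that start and multiply N-glycan antennae were higher or not called, apart from MGAT3. Of 5 tested, 3 rose and 0 fell, beside 20.9% higher and 40.4% lower among all tested genes. MGAT2, which opens the second arm, was 4.64, 4.17 and 4.45 in siControl and 5.60, 5.61 and 5.88 in siASGR1 (1.29-fold, adjusted p = 0.00256). MGAT4B, which adds a further branch on the α1,3 arm, was 27.47, 29.21 and 25.35 against 35.15, 35.43 and 32.50 (1.26-fold, adjusted p = 0.00313). MGAT5, which adds the β1,6 branch, was 6.49, 6.80 and 6.62 against 7.58, 7.46 and 7.68. All 3 siASGR1 libraries were higher for each of them. The rise of MGAT5 was small (log2 0.17, adjusted p = 0.0147), and was not called without siControl replicate 1 or siASGR1 replicate 3 (adjusted p = 0.0542 and 0.0544). MGAT1, which adds the first GlcNAc and so opens the whole complex pathway, was 33.0 ± 1.89 and 30.95 ± 2.21 (log2 -0.09, 95% interval -0.25 to 0.06). MGAT4A was 11.9 ± 0.85 and 12.2 ± 0.91 (adjusted p = 0.668). Between the 2 MGAT4 isozymes, MGAT4B was the more abundant in every library.

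MGAT3, the bisecting enzyme, whose product is known to hinder further branching, was under the filter. It was 0.40, 0.26 and 0.38 in siControl and 0.13, 0.10 and 0.05 in siASGR1, on 24 or more rebuilt fragments in siControl and 5 to 13 in siASGR1. The groups did not overlap. With no filter on low values it was called (log2 -0.30, SE 0.07, adjusted p = 0.0202), a setting in which 17.5% of all genes were called lower. Among the 13332 genes under the filter with a mean of at least 0.05 FPKM, 20.6% were lower without overlap and 4.48% higher. Of the 8 members under the filter, 4 were lower without overlap (MGAT3, FUT1, FUT6 and GALNT3) and 0 higher.

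Fucosylation genes showed the largest single change. FUT3 (ENSG00000171124; GRCh38 chromosome 19, 5842888 to 5851474, minus strand), the Lewis enzyme, which adds α1,3- and α1,4-linked fucose to antennae, was 8.78, 8.15 and 9.54 in siControl. In siASGR1 it was 0.91, 0.61 and 0.85, or 8.95% of siControl (log2 -2.46, SE 0.09, adjusted p = 3.13e-06). FUT3 passed the filter through its siControl libraries only, so it was testable only because it was higher there. On rebuilt fragments the lowest siControl library held 426 and the siASGR1 libraries 35 to 53. FUT6, the neighbouring gene of the same type and known for fucosylating plasma proteins in liver, was 0.94, 0.88 and 0.80 against 0.45, 0.56 and 0.48, and FUT5, the third gene of the cluster and not a member, was 0.93 ± 0.29 and 0.15 ± 0.07. All 3 neighbours were lower in every siASGR1 library. FUT5 and FUT6 were under the filter, where 20.6% of genes with a mean of at least 0.05 FPKM were lower without overlap. Because the 3 genes share sequence (below), they are not separate results. FUT6 was under the filter, and without it the adjusted p = 0.0545.

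The 3 neighbouring genes are close copies, which is why their coding sequence is shown. Over their longest open reading frames in GENCODE v29, FUT3 was 93.9% identical to FUT5 and 89.1% identical to FUT6. The first 3 lines give 90 bases from the middle of FUT3 (bases 499 to 588) with the aligned bases of the others, and the last 3 the 90 aligned bases that differ most (bases 350 to 439 of FUT3). Capitals mark positions that are not the same in all 3 genes.
FUT3 middle: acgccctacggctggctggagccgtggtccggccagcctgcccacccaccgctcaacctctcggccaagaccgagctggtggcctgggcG
FUT5 middle: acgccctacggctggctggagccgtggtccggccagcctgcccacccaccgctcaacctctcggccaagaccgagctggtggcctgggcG
FUT6 middle: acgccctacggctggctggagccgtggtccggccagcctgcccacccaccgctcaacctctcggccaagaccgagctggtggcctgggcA
FUT3 most different: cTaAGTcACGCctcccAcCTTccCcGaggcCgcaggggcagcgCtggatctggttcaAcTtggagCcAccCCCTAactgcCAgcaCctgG
FUT5 most different: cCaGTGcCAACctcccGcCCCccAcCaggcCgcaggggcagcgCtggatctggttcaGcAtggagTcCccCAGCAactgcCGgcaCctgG
FUT6 most different: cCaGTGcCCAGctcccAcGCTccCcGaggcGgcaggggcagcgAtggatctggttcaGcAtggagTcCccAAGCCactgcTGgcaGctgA
In the middle window 1 of 90 positions differed among the genes, and FUT3 and FUT5 were identical. In the other window 29 of 90 differed. Reads from the first kind of region cannot be assigned to 1 gene, so the values of FUT5 and FUT6, and a part of FUT3, are uncertain. Over all annotated transcripts 9.84% of the 75-base stretches of FUT3 occur in another gene, and 5.33% of those of FUT6 occur in FUT3. AC024592.2, an antisense gene over 4.05% of the exons of FUT3, was at 7.60 and 0.73 in mean FPKM. Without strand information its reads in the shared bases cannot be told apart from those of FUT3.

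The other fucosylation genes changed little or were low. POFUT1, which puts O-linked fucose on EGF repeats such as those of Notch, rose 1.25-fold, from 37.05, 36.62 and 34.74 to 44.95, 44.22 and 46.11 (log2 0.31, SE 0.04, adjusted p = 0.000473). GMDS, which makes the precursor of GDP-fucose, was 4.71 ± 0.61 and 5.20 ± 0.21 (adjusted p = 0.243), and was called higher with median-of-ratios scaling (adjusted p = 0.0403). FUT8, the core fucosyltransferase, was 1.62 ± 0.25 and 1.85 ± 0.07 (log2 0.13, 95% interval -0.09 to 0.35), and FUT10 was 1.80 ± 0.08 and 1.73 ± 0.11. Neither was called, except FUT8 with quantile normalization (adjusted p = 0.0164). FUT1 and FUT2, which add the α1,2-linked fucose of the H antigen, were 0.19 to 0.35 against 0.06 to 0.12 and 0.58 to 0.72 against 0.21 to 0.65. FUT4 was at most 0.17 and FUT11 at most 0.66 in any library. Of these 4 low genes, only FUT1 was separated between groups, and it was called when no filter was applied (adjusted p = 0.0469). The 8 FUT genes summed to 14.7 ± 0.98 in siControl and 5.77 ± 0.19 in siASGR1. As the share of FUT3 fell, that of FUT8 went from 10.98% ± 1.16 to 32.1% ± 2.09, although the level of FUT8 was not called different.

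**Figure D3:**
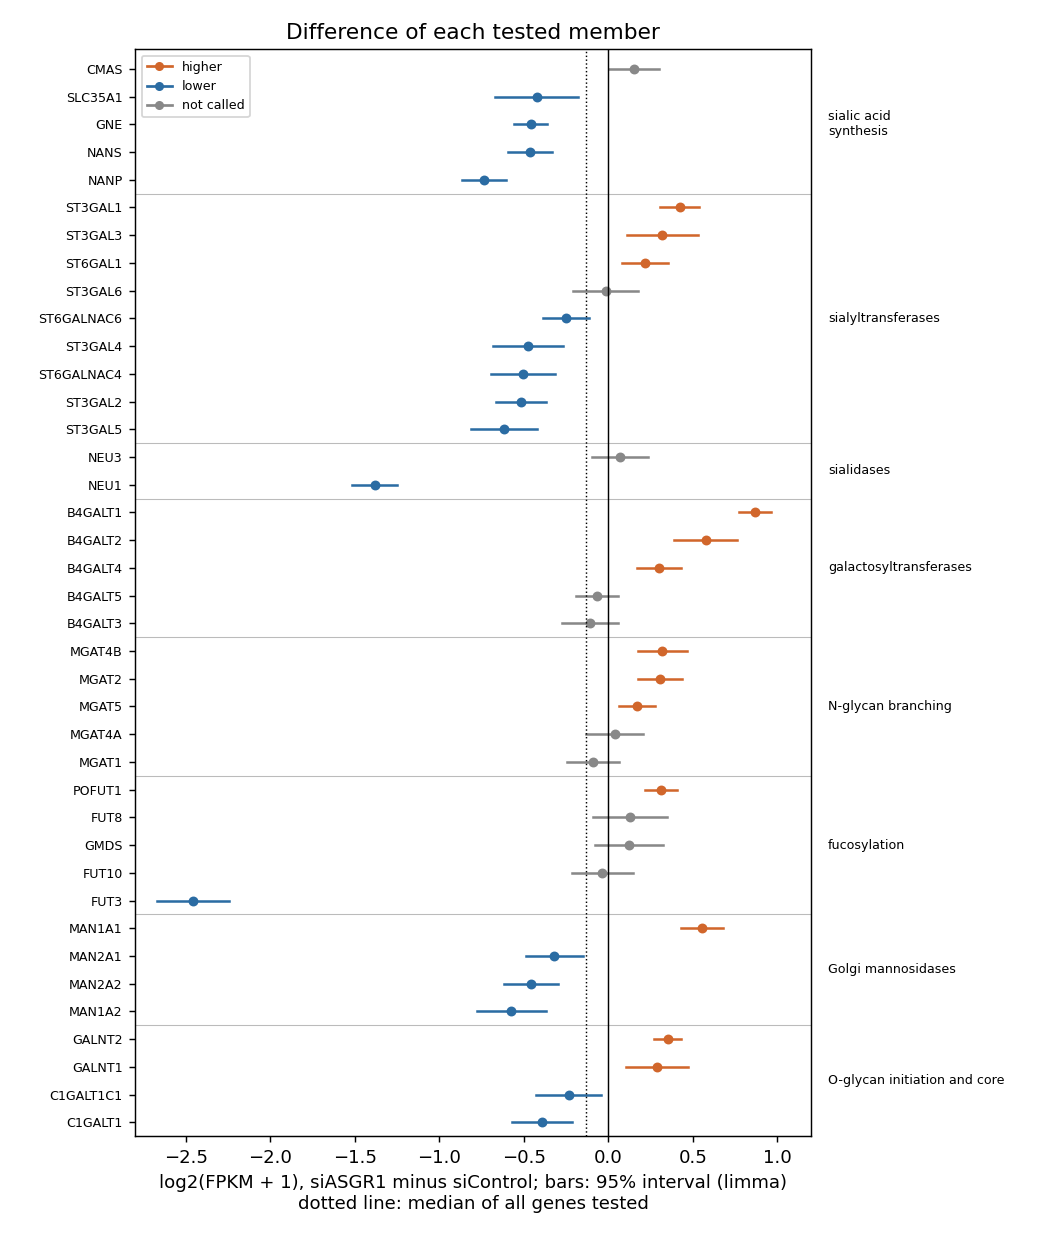
Difference in log2(FPKM + 1), siASGR1 minus siControl, of the 39 tested members with 95% intervals from limma, grouped by role and coloured by call (13 higher, 16 lower, 10 not called). FUT3 (-2.46) and NEU1 (-1.38) lie far below the dotted median of all tested genes (-0.13), and B4GALT1 (0.87) is highest.

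Golgi mannosidases moved in opposite directions. All 4 were called, 1 higher and 3 lower, beside 20.9% higher and 40.4% lower among all tested genes. MAN1A1 (ENSG00000111885; GRCh38 chromosome 6, 119177209 to 119349761, minus strand), an α1,2-mannosidase of early trimming, was the most abundant member, at 76.75, 74.35 and 80.95 in siControl and 118.88, 106.91 and 116.48 in siASGR1 (1.48-fold, log2 0.55, SE 0.05, adjusted p = 0.00012). MAN1A2, its paralogue with the same reaction, was 17.52, 17.39 and 20.07 against 12.98, 10.55 and 12.42 (1.53-fold lower, adjusted p = 0.001). MAN1A1 thus made up 80.9% ± 0.66 of the pair in siControl and 90.5% ± 0.45 in siASGR1. The α-mannosidases II act after MGAT1 and commit the chain to the complex type. MAN2A2 fell from 5.73, 5.24 and 4.81 to 3.59, 3.52 and 3.52 (adjusted p = 0.000866). MAN2A1 fell from 18.1 ± 1.38 to 14.3 ± 1.06 (adjusted p = 0.00652), but was not called with median-of-ratios scaling (adjusted p = 0.0601). The share of MAN2A1 in the MAN2A pair overlapped between groups (77.4% ± 2.78 and 80.1% ± 0.98).

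In the O-glycan group GALNT1 and GALNT2 were higher and the core 1 synthase and its chaperone lower. GALNT1, GALNT2 and GALNT3 attach the first GalNAc to serine or threonine. GALNT2 was 31.65, 31.02 and 32.04 in siControl and 40.57, 40.22 and 40.77 in siASGR1 (1.28-fold, log2 0.35, SE 0.03, adjusted p = 0.000126). GALNT1 was 12.58, 13.72 and 15.61 against 18.06, 16.58 and 17.00 (1.23-fold, adjusted p = 0.0146; without siASGR1 replicate 1, adjusted p = 0.0506). In both genes every siASGR1 library was above the siControl range. GALNT3 was under the filter, at 0.24 to 0.35 and 0.17 to 0.21, and was lower without overlap. C1GALT1, which extends GalNAc with galactose to core 1, was 8.11, 8.39 and 9.54 against 6.31, 5.90 and 6.88 (log2 -0.39, SE 0.08, adjusted p = 0.00329). C1GALT1C1 encodes COSMC, the chaperone that C1GALT1 needs, and was 12.92, 14.04 and 15.99 against 11.65, 12.91 and 11.40. Its groups were separated by 0.01 FPKM, and its call (adjusted p = 0.0406) was lost in 10 of 17 alternatives, among them median-of-ratios scaling (adjusted p = 0.365) and the fits without siControl replicate 2 (0.0762), siControl replicate 3 (0.0936), siASGR1 replicate 1 (0.106) or siASGR1 replicate 3 (0.12).

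Other genes of glycosylation gave the setting. Of 160 genes in 8 further lists, 124 were tested, with 35 higher (28.2%, against 20.9% of all tested genes) and 51 lower (41.1%, against 40.4%). Among 22 genes of nucleotide-sugar synthesis and transport, 8 rose and 8 fell. SLC35D1, a Golgi and ER nucleotide-sugar transporter, rose from 5.29 ± 0.15 to 12.5 ± 0.83 and FCSK, the fucose kinase, 1.39-fold. PMM2, the phosphomannomutase, fell from 7.93 ± 0.30 to 3.38 ± 0.09. SLC35A2, which supplies UDP-galactose to the galactosyltransferases, fell from 50.5 ± 1.60 to 29.3 ± 0.77 (log2 -0.77), so it was lower while B4GALT1, B4GALT2 and B4GALT4 were higher.

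In the ER, assembly of the lipid-linked oligosaccharide had 6 higher and 8 lower of 21 tested genes (all tested genes: 20.9% higher, 40.4% lower). ALG14 rose 2.76-fold and SRD5A3 1.93-fold, and DHDDS and ALG2 were 1.73-fold and 1.68-fold lower. ALG14 (0.847 and 2.34 in mean FPKM) passed the filter through its siASGR1 libraries only, so it was testable only because it was higher there. Of 11 tested oligosaccharyltransferase genes, which transfer that sugar to protein, 5 rose and 3 fell: MAGT1 and STT3B rose 1.59-fold and 1.34-fold, while DAD1 and TMEM258 were 1.71-fold and 1.35-fold lower. ER glucosidases, mannosidases and lectins had 6 higher and 4 lower of 14. GANAB, the catalytic subunit of glucosidase II, rose from 92.9 ± 2.75 to 202.2 ± 1.77, and CALR, a lectin chaperone, 2.13-fold. EDEM1 and EDEM3, which mark misfolded glycoproteins for disposal, fell from 26.4 ± 1.34 to 18.8 ± 0.35 and from 16.1 ± 1.29 to 11.6 ± 0.47.

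Genes of Golgi pH and glycosyltransferase trafficking, which include tethering subunits, ion transporters and factors of the proton pump, were mostly lower. Of 17, 2 rose and 12 fell (70.6%, against 40.4% of all tested genes), with a median log2 difference of -0.36, beside -0.13 for all tested genes. COG6 and COG3, subunits of the tethering complex that recycles Golgi enzymes, fell from 10.2 ± 0.20 to 4.04 ± 0.11 and from 19.6 ± 0.35 to 10.9 ± 0.40. COG4 of the same complex rose from 15.7 ± 0.70 to 21.95 ± 0.44 and COG8 1.16-fold. A list of other glycosyltransferases, mostly of the Golgi, also held the sialidases NEU2 and NEU4 and the mannosidase MAN1C1. Of its 46 genes, 18 were tested, with 1 higher (GALNT7, 2.72-fold) and 7 lower. B3GNT7 was 4.55-fold and POFUT2 1.68-fold lower, B3GNT7 (4.43 and 0.973 in mean FPKM) having passed the filter through its siControl libraries only. Of the other initiating transferases in that list, GALNT10 (5.29 and 4.04 in mean FPKM) and GALNT11 (2.44 and 1.73) fell, and were named after their values were seen. Genes of glycan breakdown, not all of them lysosomal, had 5 higher and 6 lower of 14. FUCA1, the lysosomal fucosidase, fell from 12.3 ± 1.33 to 3.54 ± 0.48, ENGASE was 1.53-fold lower, and NAGLU and FUCA2 rose 2.09-fold and 1.82-fold. CTSA, the protein that NEU1 needs for its stability, was 32.9 ± 2.04 and 36.3 ± 0.19 (log2 0.14, adjusted p = 0.0442). It was named after its values were seen. Of 7 tested sugar-binding receptors and lectins, 2 rose and 3 fell, the siRNA target ASGR1 being counted among the 3. LGALS3BP, also among the 3, passed the filter through its siControl libraries only. LGALS3, galectin-3, rose from 7.66 ± 0.96 to 35.0 ± 1.76 and ASGR2 2.26-fold, and LGALS1 was 1.54-fold lower.

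**Figure D4:**
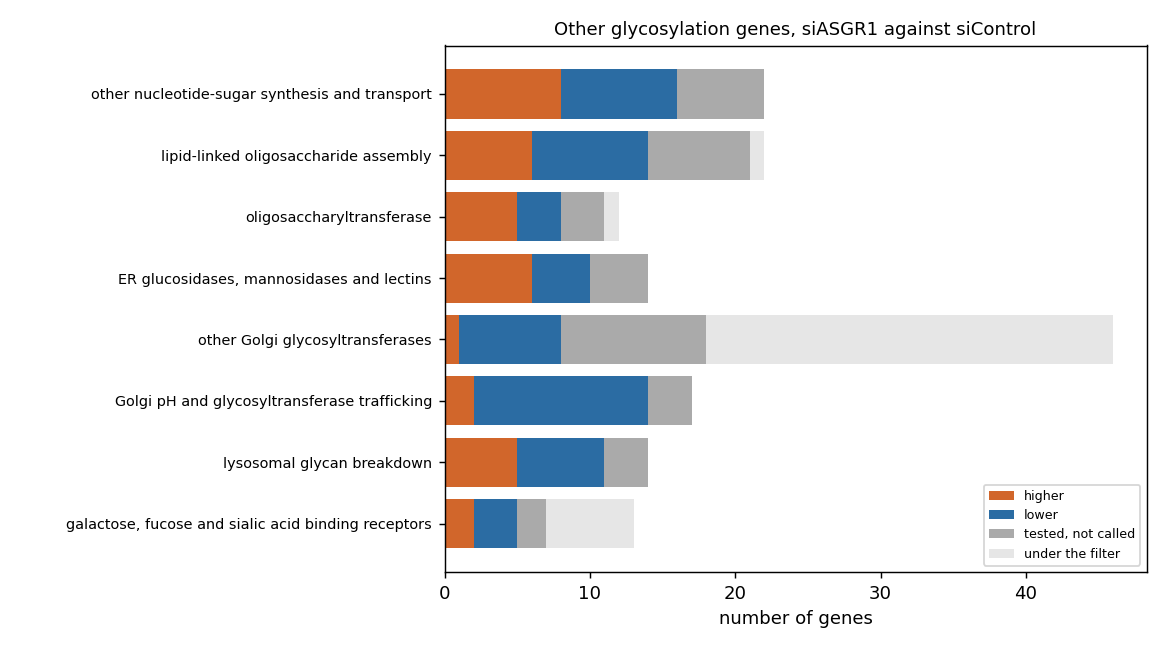
Number of genes in 8 further glycosylation lists that were called higher, called lower, tested but not called, or under the filter on low values. Golgi pH and trafficking genes are mostly lower (12 of 17), and 28 of 46 genes listed as other Golgi glycosyltransferases were too low to test.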

How the data were processed

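Per the submitters' processing notes, the tools were HISAT2 2.0.1, with hg19 as the genome build, cutadapt 1.9.1 and bcl2fastq 2.17.1.14. Which program counted reads, with which strand setting and gene models, is not stated by labels or headers. As deposited by the authors, values are FPKM rounded to 2 decimals, in 1 table of the whole series, whose name says raw counts, and in 1 file per library. Members were matched by Ensembl ID through a symbol table (51996 of 57905 IDs have a symbol). Coordinates and exon lengths are from GENCODE v29 on GRCh38, not the authors' build.

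limma 3.58.1 in R 4.3.3 was fitted to log2(FPKM + 1) with the group as the only term and an expression-dependent prior, two-sided, with Benjamini-Hochberg adjustment over the 13568 genes with at least 1 FPKM in at least 3 libraries. Depth was rebuilt from the steps between low values (94.9% to 95.4% of the 4768 to 5797 values examined per library came out whole within rounding, against 8.1% to 9.6% by chance); it was fitted to make this share highest and serves for alternatives and fragment numbers only. On simulated reads the fit recovered 22% of genes changed 1.2-fold, 58% at 1.5-fold, 92% at 2-fold and 98% at 4-fold, of 50 each. It made 8 false calls (5.59% of calls) and ran on the 13124 tested genes with an exon length. The simulation set the same spread beyond counting noise for every gene and changed far fewer genes than the 61.3% called in the data. These shares thus do not give the recovery or the false calls in the data. Same-group libraries differed by more than counting noise (chi-square over degrees of freedom 2.64 to 6.26). Members, lists and the rule for named genes (all members; the 2 most changed called genes each way of every other list) were chosen with earlier results of these data known. PECAM1, an endothelial marker, matched no row. Figures used Python 3.11.15 and matplotlib 3.10.9.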

Additional observations from a re-analysis of the deposited data

How the results depend on the processing

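Of 29 called members, 17 kept direction and call in all 17 alternatives and 4 (ST3GAL4, ST3GAL5, ST6GALNAC4 and MAN2A2) in the 16 that could test them; the other 8 lost a call in at least 1 (values beside each member above), C1GALT1C1 in 10. The counts of 13 higher and 16 lower members stayed within 11 to 16 and 11 to 17, the number tested being 29 at FPKM of at least 5 (12 higher, 11 lower), 47 with no filter (17 lower) and 39 otherwise; leaving out single libraries gave 11 to 14 and 15 to 16. The replicate block gave 14 and 15, and under it CMAS gained its call and C1GALT1C1 lost it. Same-numbered libraries showed no shared deviation (correlations -0.019, 0.0021 and 0.013). With 3 libraries per group this cannot show whether they were set up together. The median difference, -0.04, was 0.076 with median-of-ratios scaling, 0.014 with upper-quartile scaling, 0.113 with quantile normalization, -0.107 with no filter and 0.038 at FPKM of at least 5. It ranged from -0.065 to -0.021 without single libraries. Only uncalled members changed sign. With median-of-ratios scaling these were ST3GAL6 (0.11), B4GALT3 (0.034), B4GALT5 (0.076), MGAT1 (0.056) and FUT10 (0.062). With upper-quartile scaling they were ST3GAL6 (0.048), B4GALT5 (0.005) and FUT10 (0.014), and with quantile normalization ST3GAL6 (0.161), B4GALT5 (0.001) and FUT10 (0.172). Without single libraries the difference ranged from -0.072 to 0.047 for ST3GAL6 and from -0.005 to 0.096 for MGAT4A. The cause was not tested. Depth limits the 8 members under 1 FPKM, which rest on few fragments.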
